A study of Mus musculus with 282 samples.

Results

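Hematopoietic stem cells (HSCs) from the bone marrow of adult mice were sorted singly into wells and sequenced. The cells described here are the 133 HSCs, of 282 deposited, in which the transcript of Myc was present at 10 CPM or more, where CPM are read counts scaled to 1 common total of gene counts per cell. They were set against 83 HSCs without a single Myc read. A further 16 cells with 1 to 3 Myc reads and less than 10 CPM were left out, as were wells with fewer than 100000 gene counts or fewer than 1000 genes, so that 232 cells were kept before the split. The members were thus chosen by the measured Myc level of the same cells. Myc itself is therefore described without a test and was left out of every comparison.

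All cells came from mice with the genotype rtTA/rtTA at Rosa26 and H2B-GFP/H2B-GFP at Col1a1, which are 2 knocked-in alleles for a doxycycline-controlled transactivator and for a green fluorescent histone. Both Myc classes carry them. The animals were not induced with doxycycline. The series names 6 mice of 12 to 22 weeks of age in 2 experiments, and the sort gate was LSK CD48-/lo CD150+, where LSK stands for cells that lack lineage markers and carry Sca-1 and Kit. All cells form 1 group, and the labels do not tie a cell to a mouse. Cells were compared within 6 sets, each the combination of a library series (L29 or L32, from the library numbers) and an HSC code, whose meaning the labels do not give. A p-value over these sets reflects how far the sets scatter, a scatter that may be technical. Kept cells had 116009 to 1680714 gene counts, with a median of 280096, and a median of 5221 genes.

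Myc is a basic helix-loop-helix transcription factor that binds DNA as a heterodimer with Max, preferring the palindrome CACGTG, the canonical E-box. It is best known for raising the transcription of genes for ribosome production, nucleotide synthesis, translation and mitochondrial function, and for coupling growth to entry into the cell cycle. Proteins of the Mxd family and Mnt compete for Max and repress many of the same promoters. In the hematopoietic system Myc is known for a role in the balance between self-renewal and differentiation, in part through the adhesion molecules that hold HSCs in the niche, and Mycn can stand in for Myc in these cells.

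Myc lies on chromosome 15 (chr15:61985391-61990374, mm10). In the 133 Myc-detected cells its level ran from 10.9 to 4460 CPM, with a median of 468 CPM and quartiles of 246 and 851 CPM. These levels rest on 4 to 2265 reads per cell, with a median of 132 reads. Of these cells 121 were at 100 CPM or more and 9 were under 50 CPM, so that few cells lay close to the limit. The 3 cells just inside it had 10.9, 20.1 and 25.9 CPM, and the 2 just outside had 9.96 and 8.51 CPM. Of the 16 cells between the classes, 11 had 1 Myc read.

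The share of kept cells that were Myc-detected was 57.3% (exact Clopper-Pearson 95% interval 50.7% to 63.8%). The interval takes the cells as independent draws and leaves out the scatter between sets and plates. By set the share was 45.7% in L29 HSC-3, 46.5% in L29 HSC-4, 54.5% in L32 HSC-2, 59.1% in L32 HSC-3, 81.6% in L32 HSC-4 and 59.0% in L32 HSC-5. Set L32 HSC-4 was above the other 5, which lay between 45.7% and 59.1%. Its second plate held 15 Myc-detected and 0 Myc-negative cells. The 6 Myc-negative cells of this set thus all came from its first plate. In fits with plate as a term, the 15 cells of the second plate give no class contrast of their own. Plates with both classes held 118 Myc-detected and 83 Myc-negative cells. Raw shares and mean levels of genes include all 133 Myc-detected cells. On the first plate of L32 HSC-4, 69.6% were Myc-detected, a share that single plates of L32 HSC-3 and L32 HSC-5 also reached. By plate the share was 50.0% and 70.0% in L32 HSC-3 and 69.6% and 43.8% in L32 HSC-5. After thinning every cell to 100000 gene reads, the share with at least 1 Myc read, which is then 10 CPM, was 60.8%. Free RNA in the wells was gauged from 38 near-empty wells of sets L32 HSC-2 and L32 HSC-3, which held 616795 gene reads in all. These wells were not kept and had fewer gene reads than spike-in reads. Their titles name HSCs like all others, so that reading their RNA as free RNA is an assumption. Of these wells 5 had a Myc read, each at 10 CPM or more, and 1 well held 9 of the 16 reads. At the median of 8793.5 gene reads per near-empty well, 1 read alone is above 10 CPM. Passing that limit there thus says no more than having a read. Over the 38 wells Myc stood at 25.9 CPM, against 415 CPM in the 66 cells kept from those sets.

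**Figure D1:**
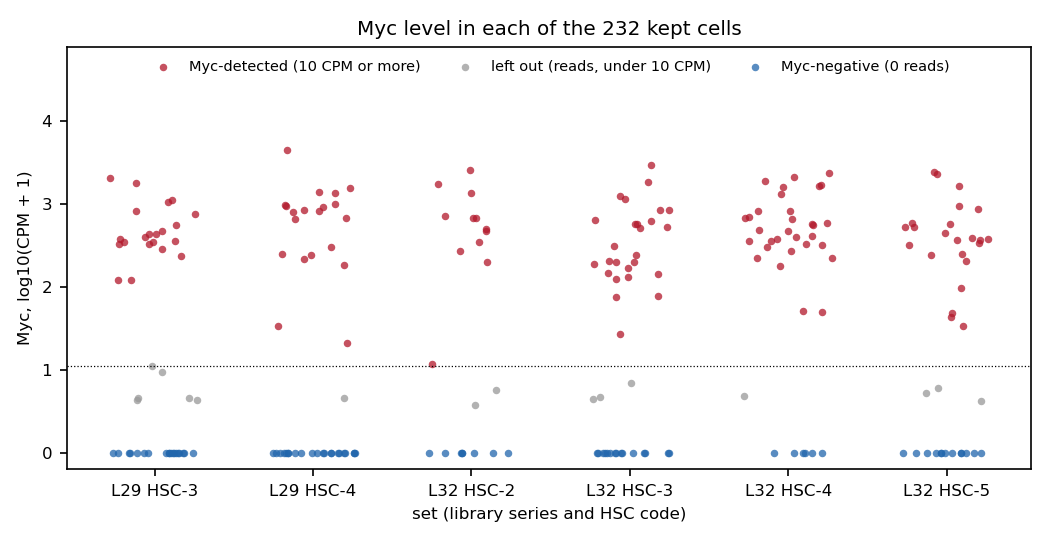
Myc level as log10(CPM + 1) in each of the 232 kept cells, by set, with 1 point per cell (red Myc-detected, grey left out, blue Myc-negative) and the 10 CPM limit as a dotted line. The Myc-detected cells of every set spread widely around the median of 468 CPM over all sets, and 16 cells lie between 0 reads and the limit.

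The Myc classes were first compared for properties of the whole cell, as differences of class means within set and plate. Myc-detected cells had on average 440 ± 545 more genes detected (SD over 6 sets, higher in 4 of 6 sets, exact two-sided sign-flip test p = 0.125, adjusted over 8 properties p = 0.25). After thinning to equal depth the difference was 369 ± 445 genes (5 of 6 sets, exact p = 0.125, adjusted p = 0.25). Total gene counts differed by 0.09 ± 0.26 on the log2 scale, with 2 of 6 sets higher (exact p = 0.5, adjusted p = 0.571). The gene reads per spike-in read, a measure of the RNA content of a cell, differed by 0.28 ± 0.47 on the log2 scale (4 of 6 sets, exact p = 0.156, adjusted p = 0.25). The mitochondrial share of reads differed by -0.58 ± 0.93 percentage points, with 2 of 6 sets higher (exact p = 0.125, adjusted p = 0.25). None of these passed the test, for which 6 sets allow no p below 0.0312.

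Without set L29 HSC-4 the difference in RNA content was 0.10 on the log2 scale, that in mitochondrial share -0.22 percentage points and that in genes detected 299. Its Myc-negative cells had a median of 11.4 gene reads per spike-in read and its Myc-detected cells 29.2. Their mitochondrial shares were 7.71% and 3.85%, and their medians of genes detected were 3882 and 5231. In the other 5 sets the median mitochondrial share was 3.103% to 4.05% in Myc-negative and 3.25% to 3.65% in Myc-detected cells. Since genes detected differed between the classes in most sets, it was a covariate in the main fit of every gene. Values given below by name for edgeR or DESeq2 on summed counts came from fits without this covariate. Raw shares of cells given beside a gene are not adjusted for it either.

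**Figure D2:**
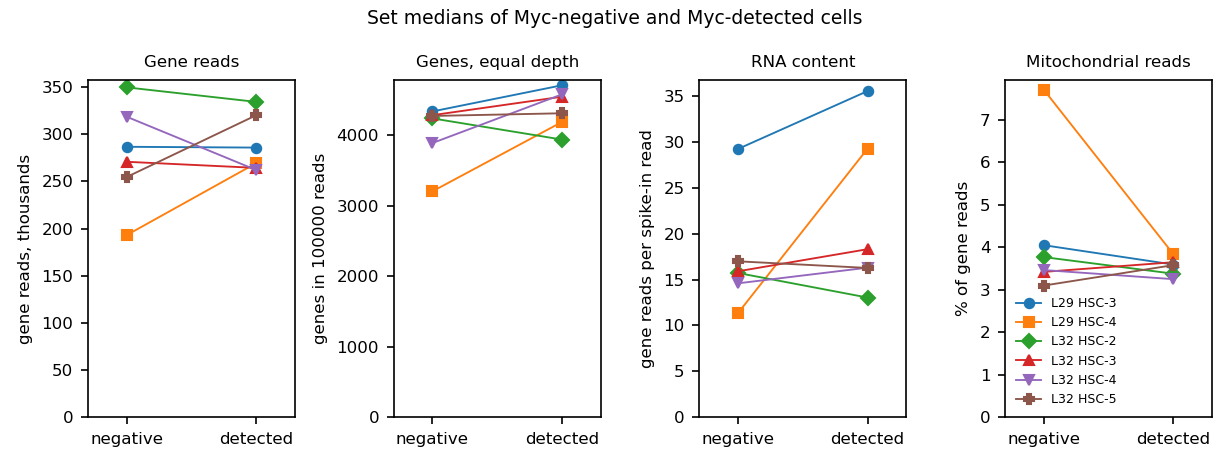
Medians of Myc-negative and Myc-detected cells in each of the 6 sets, joined by a line, for gene reads in units of 1000, genes after thinning to 100000 reads, gene reads per spike-in read and the mitochondrial share of gene reads in percent. Set L29 HSC-4 has the steepest lines for RNA content (11.4 to 29.2) and mitochondrial share (7.71% to 3.85%).

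No gene passed the test between the classes. Of 9688 genes tested, 0.0% were called in limma at an adjusted p of 0.05, and the lowest adjusted p was 0.740. Differences are given here on the scale log2(CPM/10 + 1), as Myc-detected minus Myc-negative, and this scale understates the fold of genes at low level. At an unadjusted p under 0.05 stood 594 genes (6.13%), of which 380 (3.92%) had a positive and 214 (2.21%) a negative difference. The quasi-likelihood test of edgeR on counts summed per set and class also called 0 genes, with 301 at an unadjusted p under 0.05. DESeq2 on the same sums called 66 of the 9688 genes, 52 of them higher in Myc-detected cells. For the 66 genes a median of 15.9% of all reads came from 1 cell, a share that was not computed for the other genes. The median gene had an SE of 0.22 and an unadjusted 95% interval of ± 0.49. Differences smaller than this were not detectable for such a gene at this number of sets. After adjustment over all genes tested, far larger differences were not called either. Gde1, at 1.28 ± 0.20, had an adjusted p of 0.740 in limma. With no gene called, every difference below is a value and not a change.

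The genes of biosynthesis that Myc is known to regulate were read as lists, by their counts and medians beside those of all genes, of which 53.2% had a positive difference with a median of 0.02. The list of ribosome biogenesis and the nucleolus had a positive difference in 16 of 22 genes tested, with a median of 0.24 and 4 genes at an unadjusted p under 0.05, all positive. Its median was positive in 6 of 6 sets, between 0.14 and 0.82. The list of nucleotide and polyamine synthesis had a positive difference in 16 of 20 genes, with a median of 0.33. In the single sets its median was 0.04 to 0.31, positive in 6 of 6. Combined values are averaged over sets for each gene before the median is taken, so that a combined median can lie outside the medians of the sets. With the L29 sets alone the combined median was -0.10 for ribosome biogenesis and 0.23 for nucleotide synthesis, and with the L32 sets alone 0.37 and 0.30. Without genes detected as covariate the medians were 0.42 and 0.46, and that of all genes was 0.11. No gene of either list was called.

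Within ribosome biogenesis, Nop56, a core protein of the box C/D ribonucleoproteins that guide the methylation of ribosomal RNA, had a difference of 0.45 ± 0.14 (SE). It was positive in 6 of 6 sets, from 0.27 in L29 HSC-3 to 0.81 in L32 HSC-4. Nop56 was detected in 74.4% of Myc-detected and 53.0% of Myc-negative cells. By set, its mean level was 233 to 382 CPM in Myc-detected cells and 121 to 377 CPM in Myc-negative cells, so that the ranges overlap. Further members were chosen for naming after their values were seen. Polr1c, a subunit shared by RNA polymerases I and III, had a difference of 0.70 ± 0.21, positive in 6 of 6 sets. Nop16, which takes part in assembly of the large ribosomal subunit, was at 0.78 ± 0.23 and Nolc1, a nucleolar phosphoprotein, at 1.01 ± 0.35, each positive in 5 of 6 sets. The 2 most abundant members were nucleolin (Ncl), at -0.14 ± 0.21, and nucleophosmin (Npm1), at 0.03 ± 0.14.

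In the nucleotide list, Shmt2, the mitochondrial serine hydroxymethyltransferase that feeds carbon units into purine and thymidylate synthesis, had a difference of 0.85 ± 0.30 and was positive in 5 of 6 sets. It was detected in 56.4% of Myc-detected and 28.9% of Myc-negative cells, with mean levels of 177 and 97.4 CPM. Paics, an enzyme of purine synthesis, was at 0.55 ± 0.25 but positive in 3 of 6 sets, from -0.29 in L32 HSC-4 to 1.36 in L29 HSC-3. Prps1, which makes phosphoribosyl pyrophosphate, was at 0.41 ± 0.30, also positive in 3 of 6 sets. The known Myc targets Odc1, the first enzyme of polyamine synthesis, and Cad, of pyrimidine synthesis, were named after their values were seen. Odc1 was at -0.23 ± 0.14, positive in 1 of 6 sets, and Cad at 0.14 ± 0.27, positive in 3 of 6.

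The other lists of growth had medians whose sign or place beside all genes depended on the sets used or on the kind of fit. That of ribosome biogenesis did so too, with the L29 sets alone. It lay above all genes in 26 of 27 fits, as did amino acid transport and mitochondrial import. Among the lists of growth only nucleotide synthesis lay above all genes in 27 of 27 fits. Amino acid transport and tRNA charging had 8 of 12 positive and a median of 0.23, which was -0.07 without set L32 HSC-2 and 0.06 without set L29 HSC-4. Its set medians ran from -0.54 to 0.83 and were positive in 4 of 6 sets. Translation factors had 10 of 16 positive with a median of 0.13, which was 0.01 without set L32 HSC-4, below the 0.02 of all genes. Oxidative phosphorylation had 15 of 20 positive with a median of 0.11, yet its median was positive in 3 of 6 sets and was -0.01 with the L32 sets alone and 0.34 with the L29 sets alone. Glycolysis, led in level by Aldoa, Ldha and Pkm, had 9 of 14 positive with a median of 0.09, which was -0.01 without set L29 HSC-4.

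Ribosomal proteins had a positive difference in 17 of 20 genes but a median of 0.06, with Rpl4 at 0.00 ± 0.15 and Rps3 at 0.07 ± 0.14. The chaperonin and heat shock list had 7 of 12 positive and a median of 0.06, which was -0.01 with the L32 sets alone. In edgeR on summed counts, where the median of all genes was 0.13, ribosomal proteins were at -0.04, oxidative phosphorylation at -0.06, chaperonin and heat shock genes at -0.04, translation factors at 0.05 and glycolysis at 0.07, each below all genes. Mitochondrial import and chaperones had 9 of 14 positive with a median of 0.09, which was -0.17 with the L29 sets alone. Of these 14 genes 3 stood at an unadjusted p under 0.05, among them C1qbp, a mitochondrial matrix protein, at 0.69 ± 0.30. In near-empty wells C1qbp stood at 1120 CPM, and in cells kept from those sets at 363 CPM, and the part of free RNA in its value was not tested.

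**Figure D3:**
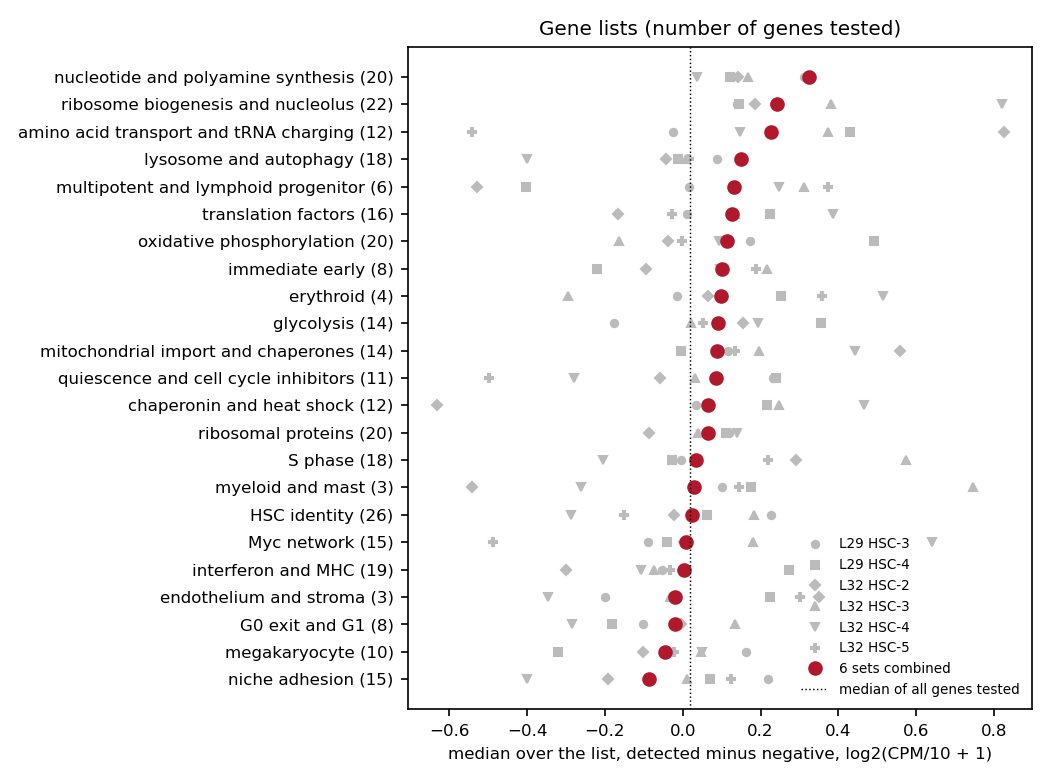
Median difference of each gene list, in log2(CPM/10 + 1), Myc-detected minus Myc-negative, with a red point for the 6 sets combined, a grey point for each set and a dotted line at the median over all 9688 genes tested (0.02). Lists with fewer than 3 genes tested are not drawn. Of the 23 drawn, nucleotide synthesis (0.33) and ribosome biogenesis (0.24) have the highest combined medians and are positive in each set.

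**Figure D4:**
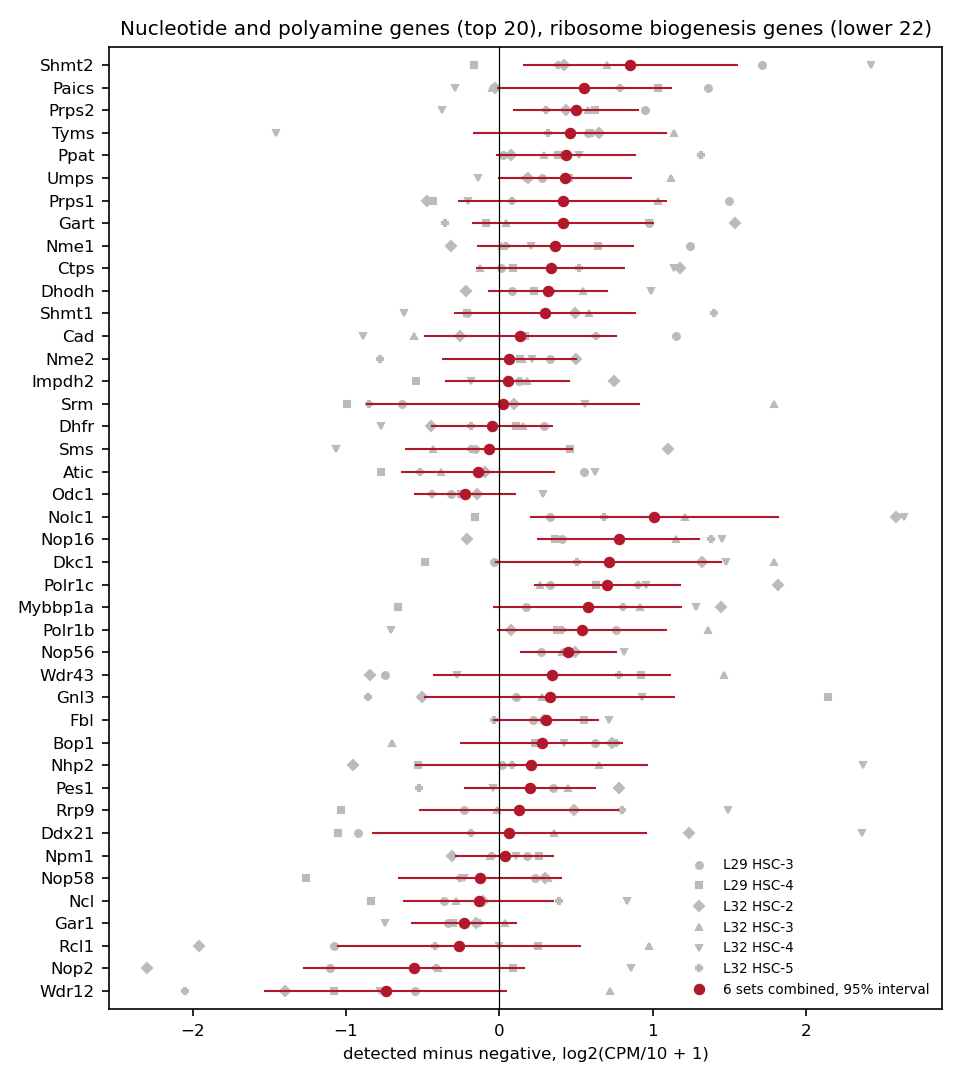
Difference in log2(CPM/10 + 1), Myc-detected minus Myc-negative, of the 20 nucleotide and polyamine genes and the 22 ribosome biogenesis genes tested, with grey points for the sets and a red point with its unadjusted 95% interval for the 6 sets combined. Most intervals cover 0, and those of Nop56 (0.45), Polr1c (0.70), Nop16 (0.78), Nolc1 (1.01), Shmt2 (0.85) and Prps2 (0.50) lie above it.

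Since CACGTG is the site Myc and Max prefer, it was counted in promoters, taken as 250 bases before to 50 after each start in RefSeq (GRCm38.p6, the assembly that mm10 follows). The motif is its own reverse complement, so both strands are read at once. It occurred in 849 of 6658 tested genes with a promoter (12.8%) and in 8.09% of all 27025 promoters. Genes with it had a median difference of 0.03 and genes without it 0.02. Within the lists it occurred in 6 of 17 promoters of nucleotide synthesis, 4 of 19 of ribosome biogenesis, 3 of 7 of amino acid transport and tRNA charging and 5 of 14 of mitochondrial import. A match is only a stretch of letters and shows no binding. The sites of 2 nucleotide genes with a positive difference in 5 of 6 sets are shown as examples of the motif in its surroundings, 5′ to 3′ on the strand of the gene, with the motif in capitals. Nme1 encodes a nucleoside diphosphate kinase and Tyms thymidylate synthase.
Nme1 (chr11:93968029-93968074, minus strand): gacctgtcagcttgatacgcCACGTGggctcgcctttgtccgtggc
Tyms (chr5:30073661-30073706, minus strand): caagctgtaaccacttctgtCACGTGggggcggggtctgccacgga
In Nme1 the motif begins 29 bases before the start, and the gene's difference was 0.37 ± 0.22. In near-empty wells Nme1 stood at 316 CPM, and in cells kept from those sets at 103 CPM. In Tyms it begins 61 bases before the start, and the difference was 0.46 ± 0.27. Neither was called.

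Among the partners and regulators of Myc, 15 of 20 could be tested, of which 8 had a positive difference, with a median of 0.01 and 0 at an unadjusted p under 0.05. Mycn, the closest relative of Myc, was at a level of the same order as Myc itself, with a mean of 516 CPM in Myc-detected and 598 CPM in Myc-negative cells. It was found in 101 of 133 Myc-detected cells (75.9%) and in 59 of 83 Myc-negative cells (71.1%). Its difference was -0.55 ± 0.29, positive in 1 of 6 sets, with values of -0.36 and -1.26 in L29 HSC-3 and L29 HSC-4 and of -1.56, 0.59, -0.09 and -1.15 in L32 HSC-2 to L32 HSC-5. Mycn was thus present in most Myc-negative cells. Max, the obligate partner, was at 0.03 ± 0.28, positive in 2 of 6 sets. The Max-binding repressors showed no common sign, with Mxd1 at 0.28 ± 0.15, Mxd4 at 0.42 ± 0.22, Mxi1 at -0.31 ± 0.20, Mnt at 0.01 ± 0.22 and Mga at -0.17 ± 0.18. Mlx and Mlxip, of the parallel Mlx network, were at -0.41 ± 0.20 and -0.16 ± 0.24. In near-empty wells Mlxip was at 417 CPM against 32.2 CPM in cells kept from the same sets, and Mxi1 at 110 against 12.3 CPM.

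The cofactor Ruvbl1, an ATPase of chromatin-remodelling complexes that Myc recruits, was at 0.80 ± 0.35, positive in 5 of 6 sets. Without set L29 HSC-4, where it was 2.84, the other 5 sets ranged from -0.18 to 0.81. Its partner Ruvbl2 was at -0.01 ± 0.46, Trrap, a scaffold of histone acetyltransferase complexes, at -0.24 ± 0.25, and Wdr5, a histone-reading partner, at 0.29 ± 0.22. The ubiquitin ligases that turn Myc protein over were at 0.03 ± 0.18 for Fbxw7 and 0.38 ± 0.33 for Huwe1. Mycl, Mxd3, Pvt1, Aurka and Bin1 fell under the detection filter.

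The 12 genes of lowest p with the same sign in all sets were listed for each direction. Across all genes 207 (2.14%) were positive and 136 (1.4%) negative in 6 of 6 sets. The shared sign belongs to the choice of these 24 and is no support for them. Higher values in Myc-detected cells were led by Gde1, a glycerophosphodiester phosphodiesterase, at 1.28 ± 0.20. It was detected in 36.1% of Myc-detected and 12.0% of Myc-negative cells, and in set L32 HSC-4 its difference was 0.08. Slc25a5, the mitochondrial carrier that exchanges ADP for ATP, was at 0.96 ± 0.16. Its set values were 0.70 and 1.06 in the L29 sets and 1.11, 1.04, 0.40 and 1.32 in L32 HSC-2 to L32 HSC-5. By set its mean level was 251 to 437 CPM in Myc-detected and 154 to 303 CPM in Myc-negative cells.

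Cd164, the sialomucin endolyn of hematopoietic progenitors, was at 0.81 ± 0.15 and was detected in 66.2% of Myc-detected and 42.2% of Myc-negative cells. Prkacb, a catalytic subunit of protein kinase A, was at 1.33 ± 0.29, and Mrpl16, a protein of the mitochondrial ribosome, at 1.06 ± 0.23. Psmc2, an ATPase of the proteasome cap, was at 1.03 ± 0.24, and Ak3, a mitochondrial adenylate kinase, at 0.90 ± 0.21. Orc4, a subunit of the origin recognition complex, was at 0.59 ± 0.14. The remaining 4 were Vgll4, Sbf1, Stk26 and Uhmk1, between 0.75 and 1.01.

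Lower values were led by Cdkal1, a tRNA-modifying enzyme, at -0.81 ± 0.15, detected in 15.8% of Myc-detected and 27.7% of Myc-negative cells. Hsp90b1, the chaperone of the endoplasmic reticulum, was at -0.95 ± 0.18, yet it was detected in 75.9% of the cells of both classes. Without genes detected as covariate its difference was -0.30, and in edgeR on summed counts -0.17. Mef2c, a transcription factor of lymphoid and myeloid progenitors, was at -0.71 ± 0.14, between -0.43 and -0.97 in the sets. Abcg3, a half-transporter, was at -1.35 ± 0.30. The other 8 were Cpsf7, Snapc3, Map7, Parp12, Sertad2, Slc30a7, Ppp3r1 and Usp5, between -1.01 and -0.73. DESeq2 on summed counts called Snapc3, Map7 and Parp12 in the same direction. In near-empty wells 4 of the 12 genes with positive values and 2 of the 12 with negative values stood higher than in kept cells, against 21.3% of all genes. The 4 were Orc4, at 756 CPM against 68.6 CPM, Slc25a5, at 342 against 226 CPM, Uhmk1, at 222 against 99.9 CPM, and Stk26, at 170 against 101 CPM. The 2 were Mef2c, at 1187 against 196 CPM, and Usp5, at 156 against 135 CPM. The part of free RNA in their values was not tested.

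**Figure D5:**
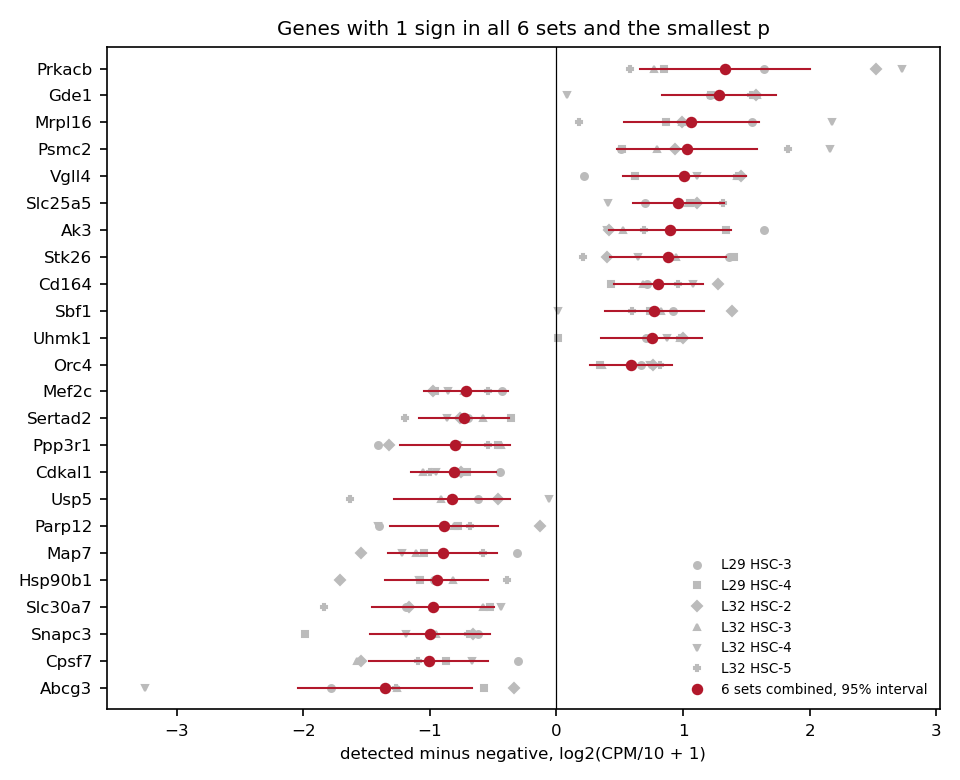
Difference in each of the 6 sets, in log2(CPM/10 + 1), for the 12 genes per direction with the lowest p and the same sign in all sets (grey), with the combined value and its unadjusted 95% interval (red). The sets of 1 gene can differ widely, as for Gde1, with 0.08 in L32 HSC-4 and 1.22 to 1.59 elsewhere.

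Genes of the cell cycle had values of both signs. In the G0 exit and G1 list 4 of 8 genes had a positive difference, with a median of -0.02, and Ccnd2, Ccnd3 and Cdk4 were at 0.09 ± 0.19, -0.11 ± 0.31 and -0.17 ± 0.20. The S-phase list had 12 of 18 positive with a median of 0.03. Without genes detected as covariate the list's median was 0.35, against 0.11 for all genes. Its most abundant members Mcm3, Mcm6 and Cdca7 were at 0.73 ± 0.27, 0.37 ± 0.34 and 0.49 ± 0.24. Cdca7, a known Myc target, was called by DESeq2 on sums and by no other fit. With log10 genes detected as a covariate, S-phase genes detected per cell differed by 0.17 ± 1.27 of 20 (SD over 6 sets, 4 of 6 higher, exact sign-flip p = 0.656, adjusted p = 0.656). With the same covariate, G2/M genes differed by -0.09 ± 0.32 (3 of 6, exact sign-flip p = 0.5, adjusted p = 0.571). The unadjusted means, pooled over sets, were 6.38 S-phase genes in Myc-detected and 4.31 in Myc-negative cells. Those of G2/M genes were 1.135 and 0.819. A cell with 5 or more of the 20 G2/M genes was found in 4 of 133 Myc-detected cells (3.01%, interval 0.825% to 7.52%) and 1 of 83 Myc-negative cells (1.20%, interval 0.0305% to 6.53%). The 2 G2/M genes abundant enough to test, Top2a and Kif23, were at -0.34 ± 0.16 and -0.11 ± 0.16. Quiescence genes and cell cycle inhibitors had a median of 0.08 with 7 of 11 positive, and Txnip, the most abundant, was at -0.11 ± 0.24.

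The HSC genes Kit, Angpt1, Ly6a and Slamf1 were each detected in both classes, Slamf1 in a minority of the cells of each. Detection shares of the other HSC identity genes are not given here. Kit, the stem cell factor receptor, was detected in 85.7% of Myc-detected and 83.1% of Myc-negative cells, and Angpt1, a ligand made by HSCs, in 95.5% and 88.0%. Ly6a, which encodes Sca-1, was detected in 78.2% and 63.9%, and Slamf1, which encodes CD150, in 19.5% and 19.3%. Of the HSC identity list 13 of 26 genes had a positive difference, with a median of 0.02. Angpt1 was at 0.46 ± 0.16 and Kit at -0.19 ± 0.33. Mecom, a transcription factor needed for HSC maintenance and named after its value was seen, was at -0.93 ± 0.39. It ranged from -3.23 in L32 HSC-4 to 1.22 in L32 HSC-2. The niche adhesion list, through which Myc is known to act on HSC retention, had 7 of 15 positive and a median of -0.09. Its most abundant members Esam, Itgb1 and Itga6 were at -0.65 ± 0.27, -0.18 ± 0.33 and 0.12 ± 0.46. In near-empty wells Esam was at 668 CPM against 254 CPM in kept cells, and Itga6 at 240 against 99.8 CPM.

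Lysosome and autophagy genes, whose programme Myc is known to oppose in part, had 11 of 18 positive and a median of 0.15, but the list's median was positive in 3 of 6 sets, from -0.40 to 0.09, and was -0.04 in edgeR on summed counts. Sqstm1, the autophagy receptor p62, was at 0.72 ± 0.23, positive in 5 of 6 sets. Ctsb, a lysosomal protease, was at -0.55 ± 0.27 and Map1lc3b, of the autophagosome membrane, at 0.16 ± 0.36. Grn, the lysosomal protein progranulin, was at -0.91 ± 0.26 and negative in 6 of 6 sets, but detected in 51.9% and 51.8% of cells. In the interferon and MHC list 10 of 19 were positive with a median of 0.00. Irf1, an interferon-induced transcription factor, was at 0.93 ± 0.24, positive in 6 of 6 sets, while H2-K1, of MHC class I, was at -0.48 ± 0.23 and negative in 6 of 6. B2m was at -0.15 ± 0.14. Grn and Irf1 were named after their values were seen. Immediate early genes had 6 of 8 positive and a median of 0.10.

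Genes of other cell types that the gate could hold were summed as a check. Multipotent and lymphoid progenitor genes, with 6 of 12 tested, summed to 636 to 1129 CPM over the sets in Myc-detected cells and 489 to 925 CPM in Myc-negative cells. Megakaryocyte genes, with 10 of 14 tested, summed to 652 to 1499 CPM and 674 to 1851 CPM. Erythroid genes summed to 1253 to 2864 CPM and 1541 to 2359 CPM, most of it Car2, while Car1 was at 0 in both classes. Myeloid and mast cell genes summed to 875 to 1201 CPM and 988 to 1493 CPM. Elane and Ctsg were at 0 in both classes, but other members were detected in both. Lyz2 was detected in 93.2% of Myc-detected and 74.7% of Myc-negative cells, Prtn3 in 85.7% and 74.7%, and Csf3r in 30.8% and 20.5%. B, T and NK cell genes summed to 33.7 to 90.8 CPM and 1.24 to 132 CPM, and endothelial and stromal genes to 128 to 308 CPM and 123 to 349 CPM. In each of these 6 lists the ranges of the 2 classes overlap.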

How the data were processed

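The deposited table holds the authors' raw read counts, 1 row per gene and 1 column per cell, made with GSNAP and featureCounts (version 1.6.2) on mm10, per the submitters' processing notes. The table's name gives Ensembl release 87. Polyadenylated RNA was copied and amplified, per the labels' protocols, with 22 PCR cycles, without molecular identifiers, so PCR copies count as reads. The handling of strand and multiply mapped reads is not stated in the labels, so overlapping or near-identical genes are uncertain. The 92 spike-in rows and the row of the transgene were not part of totals or CPM. Sequences and promoters are from RefSeq (GRCm38.p6). Cells were sorted 1 to a well, so no doublet caller was run and no barcodes are shared. The number of cells in a well was not checked. Kept wells include 1 Myc-negative well of L32 HSC-3 with 13734 genes in 206220 gene counts. Another, Myc-detected and of L29 HSC-3, had 11926 genes in 122145 gene counts.

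Kept cells had at least 100000 gene counts and 1000 genes. A gene was tested if it reached 10 CPM in at least 10% of kept cells. In each set, log2(CPM/10 + 1) was fitted by least squares on the Myc class, plate and log10 genes detected. The 6 coefficients, weighted by the inverse of their unscaled variance, were tested against 0 in limma (version 3.58.1) with Benjamini-Hochberg adjustment over 9688 genes at 0.05. Alternatives used edgeR (version 4.0.16) and DESeq2 (version 1.42.0) on sums per set and class. Among these, only an alternative of edgeR carried genes detected as covariate. Cell properties were compared with an exact two-sided sign-flip permutation test over sets, adjusted over 8. The counts of S-phase and G2/M genes had log10 genes detected as a further covariate. At 10 CPM the median kept cell holds 2.80 reads.

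The members, the 25 gene lists and the tests were chosen with earlier results of these data known. Genes named were all tested members of the Myc network, the 12 of lowest p per direction with 1 sign in all sets, and, of each remaining list, the 3 tested members of highest mean CPM. Genes named outside this rule (Polr1c, Nop16, Nolc1, Nme1, Tyms, Odc1, Cad, Mecom, Grn, Irf1, Prps2) were chosen after their values were seen. Predicted genes, pseudogenes and genes lacking a symbol were counted only. Some genes that the rule takes are left unreported.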

Additional observations from a re-analysis of the deposited data

Results flagged for a closer look

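Values were checked for single sets far from the other 5 by Dixon's criterion, under which chance marks about 1 in 20. Of 71 values looked at, 9 were marked, and 5 of these lay in set L32 HSC-4, whose Myc-negative class has 6 cells. There, the share of Myc-detected cells was 81.6% against 45.7% to 59.1%. The median of the ribosome biogenesis list was 0.82 against 0.14 to 0.38, and that of the lysosome and autophagy list was -0.40 against -0.04 to 0.09. Max was at 2.12 against -0.49 to 0.06, and Gde1 at 0.084 against 1.22 to 1.59.

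The other 4 lay in set L29 HSC-4, whose Myc-negative cells had fewer genes and less RNA. The difference in gene reads per spike-in read was 1.18 on the log2 scale against -0.11 to 0.36. The difference in mitochondrial share was -2.38 percentage points against -0.72 to 0.13. Ruvbl1 was at 2.84 against -0.18 to 0.81, and Uhmk1 at 0.012 against 0.71 to 1.00.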

How the results depend on the processing

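Over 26 alternatives (2 added after seeing the data: a variance trend, and plates with both classes only), every one but DESeq2 on sums called 0 genes, and DESeq2 called 66, 65 of them with the sign of the fit over sets. Leaving out each set in turn gave 0 calls throughout. With any Myc read as the limit the share of Myc-detected cells was 64.2%. The sizes of leading genes varied, with Hsp90b1 between -1.48 and -0.08, Usp5 between -1.17 and -0.12 and Ak3 between 0.20 and 1.56, and 4 named genes (Snapc3, Map7, Parp12, Cdca7) were called by DESeq2 alone. The shift of the median over all genes was 0.11 without genes detected as covariate and 0.13 for edgeR on sums, so lists are read relative to it. The median of the nucleotide list minus that of all genes ran from 0.21 to 0.57, and that of ribosome biogenesis from -0.10 (L29 sets only) to 0.39. Every fit compared the classes within sets, so the sets are the pairs, and a fit without them was not run.

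The effect of Myc class did not pass the test for a difference between the library series in any gene (limma, 0 called, 544 at an unadjusted p under 0.05). Depth limits low genes: 10 CPM is under 3 reads in the median cell.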

Other observations

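Reads of the H2B-GFP transgene were found in the mice labelled as not induced. They were present in 10 of 133 Myc-detected cells (7.52%, exact Clopper-Pearson 95% interval 3.66% to 13.4%) and 8 of 83 Myc-negative cells (9.64%, interval 4.25% to 18.1%). Their level differed by 6.27 ± 8.35 on the CPM scale (SD over 6 sets, higher in 4 of 6, exact sign-flip p = 0.125, adjusted p = 0.25), with 21.2 in L29 HSC-3.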
